A study of Brassica rapa subsp. pekinensis with 2 samples.

Results

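The miR395 family of Chinese cabbage was described from 2 small RNA libraries, ‘Ant’ from anthers and ‘Mix’ from whole seedlings. Its members were all entries of the authors' miRNA table whose name carries the number of this family, alone, after miR or MIR. This rule gave 19 records with 12 names, which hold 11 distinct sequences of the 1152 in the table. Each sequence was counted once. The samples came from the double haploid line ‘FT’. ‘Ant’ held anthers of mixed developmental stages, and ‘Mix’ held whole seedlings at 4 true leaves, with their roots, stems and leaves. The sample labels give vernalization at 4 °C for 20 days for both samples, while the methods text names it for ‘Ant’ alone. With 1 library for each sample, no value has a replicate error.

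miR395 is known in plants as the miRNA of sulfate assimilation. In Arabidopsis it guides the cleavage of mRNAs for ATP sulfurylases, which activate sulfate, and for a low-affinity sulfate transporter, and it accumulates when sulfate is scarce. The sequence that acts on these targets is cut from the 3′ side of the hairpin (3p), while its partner from the 5′ side (5p) is usually the strand that is discarded. Expression of sulfate genes is not part of the miRNA table and was not analysed here.

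The 11 sequences are shown because the report compares them one by one. They are in the DNA letters of the table, 5′ to 3′, with the seed (bases 2 to 8) in capitals. The 6 sequences of the 5p side are listed first.
cca-MIR395c-p5_1ss8CT: gATCCTCTgaacacttcattg
bra-miR395a-5p: gTTCCTCTgagcacttcattg
aly-MIR395i-p5_2ss7CT19TC: gTTCCTTCgaacacttcactg
bna-MIR395d-p5 and bna-MIR395f-p5 (1 sequence): gTTCCCTTtaacgcttcattg
bna-MIR395e-p5: gTTCCCTGaaacgcttcattg
mdm-miR395k: gTTTCCTCaaacacttcatt
The 5 sequences of the 3p side follow.
bra-miR395a-3p: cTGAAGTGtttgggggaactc
aly-miR395i: cTGAAGTGtttggaggaactc
gma-miR395d_L+3R-2: aACTGAAGtgtttgggggaact
bna-MIR395e-p3: aATCAATCtaatgaacactgaagt
bna-MIR395d-p3_1ss8GA: cTTAAATAtttggtcgat

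The prefix of a name is the species of the matched miRBase entry (bra, Brassica rapa), L and R count bases gained or lost at the left and right end, and ss marks substitutions. The reads themselves come from Chinese cabbage. bra-miR395a-3p and aly-miR395i share the seed TGAAGTG and differ at 1 base of 21 (G14A, counted from the 5′ end, with bra-miR395a-3p first). The other 9 sequences each had a seed of their own. Compared with bra-miR395a-5p, cca-MIR395c-p5_1ss8CT differed at 2 bases (T2A and G11A), aly-MIR395i-p5_2ss7CT19TC at 4, bna-MIR395d-p5 at 5 and bna-MIR395e-p5 at 6. All of these positions are counted from the 5′ end, with bra-miR395a-5p first.

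For each sequence, its reads and the reads of all other listed sequences were set in a Pearson chi-square test without correction and in Fisher's exact test (two-sided). A call required p-values of 0.05 or less in both tests and normalized reads in ‘Ant’ over those in ‘Mix’ with an absolute log2 ratio above 1. Intervals are exact binomial intervals at 95%. They cover counting error only, and the tests compare 2 libraries, not the conditions. Reads summed over all listed sequences came to 1346844 in ‘Ant’ and 1393868 in ‘Mix’, and a count of 0 allows up to 3 reads, or 0.000223% of the reads in ‘Ant’ and 0.000215% in ‘Mix’. As a check of the anther label, the 3 sequences of miR845, known from Arabidopsis pollen, summed to 11214 reads in ‘Ant’ and 95 in ‘Mix’.

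miR395 was a sparse family in both libraries. Its 11 sequences held 280.25 reads in ‘Ant’, or 0.0208% of the miRNA reads, and 193 reads in ‘Mix’, or 0.0138%. In such bulk samples, fewer cells of a type and less RNA per cell cannot be told apart. Among the 40 families with at least 3 sequences, at least 30 reads in all and reads in both libraries, it ranked 33rd in ‘Ant’ and 34th in ‘Mix’. Of the 11 sequences, 7 had reads in both libraries, 2 only in ‘Ant’ and 2 only in ‘Mix’. At least 10 reads in a library were reached by 6 sequences, and the other 5 had no more than 2 reads in either library.

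**Figure D1:**
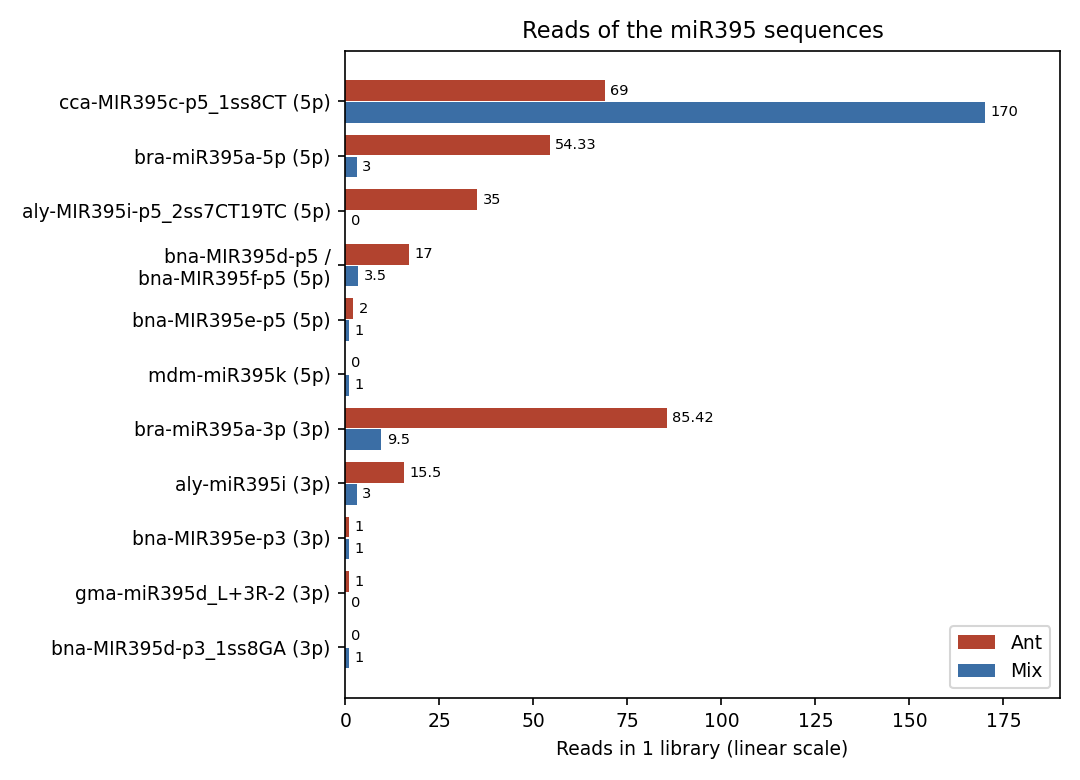
Horizontal bars give the reads of each miR395 sequence (linear scale) in ‘Ant’ (red, upper bar) and ‘Mix’ (blue, lower bar), 1 library each, with the value beside the bar and the side of the hairpin in brackets. cca-MIR395c-p5_1ss8CT reached 170 reads in ‘Mix’, where no other sequence passed 9.5.

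Of the 11 sequences, 5 were called higher in ‘Ant’, against 28.0% of the 1152 sequences of the table. Another 1 was called lower, against 19.3% of the table. All 6 calls also held after Benjamini-Hochberg adjustment of the chi-square and Fisher's exact p-values over the table, with a largest adjusted p of 0.00886. The 6 called sequences are those with at least 10 reads in a library, and the 5 not called are those with up to 2. With an assumed biological variation between libraries (coefficient 0.4), edgeR's exact test kept 3 of the calls, bra-miR395a-5p, bra-miR395a-3p and aly-MIR395i-p5_2ss7CT19TC, and lost the other 3, that of the lower sequence included (p = 0.126). Over all 11 sequences, with values under 3 reads raised to 3, the median log2 ratio was -0.046, beside -0.0058 over the 1152 sequences of the table. The value -0.046 is set by the library factors alone, since the 5 sequences with up to 2 reads were raised to 3 in both libraries. Among the 6 sequences above 3 reads in a library, the median was 2.72, beside 0.37 over the 997 such sequences of the table. That minimum can be passed through the library with more reads alone.

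Of the 5 sequences from the 3p side, which is known to guide cleavage in Arabidopsis, the 2 with more than 3 reads were called higher in ‘Ant’ and the other 3 were not called. bra-miR395a-3p, the annotated mature miRNA of Brassica rapa, had 85.42 reads in ‘Ant’, against 9.5 reads in ‘Mix’. It was thus the most read miR395 sequence in ‘Ant’ and came after cca-MIR395c-p5_1ss8CT in ‘Mix’. This was a log2 ratio of 3.12 (interval 2.09 to 4.15, Fisher's exact p = 9.10e-17). aly-miR395i, which differs from it by G14A alone, had 15.5 reads in ‘Ant’, against 3 reads in ‘Mix’. This gave a log2 ratio of 2.32 (interval 0.56 to 4.79, Fisher's exact p = 0.00223), so the 2 forms with the seed TGAAGTG moved the same way. The intervals of both forms overlap, and the difference between their ratios was not tested.

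Of the other 3p sequences, gma-miR395d_L+3R-2, a form shifted at both ends, had 1 read in ‘Ant’ and 0 in ‘Mix’. bna-MIR395e-p3 had 1 read in each library, and bna-MIR395d-p3_1ss8GA had 0 in ‘Ant’ and 1 in ‘Mix’. No difference was detectable at this depth for these sequences. The 3p side as a whole held 102.92 reads in ‘Ant’, against 14.5 reads in ‘Mix’, which gave a log2 ratio of 2.78 (interval 1.95 to 3.62, Fisher's exact p = 3.88e-18). Most of this sum was bra-miR395a-3p, and without it the log2 ratio of the 3p side was 1.76.

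On the 5p side, sequences went both ways. bra-miR395a-5p, the partner of bra-miR395a-3p, had 54.33 reads in ‘Ant’, against 3 reads in ‘Mix’, which gave a log2 ratio of 4.13 (interval 2.50 to 6.45, Fisher's exact p = 1.17e-13). aly-MIR395i-p5_2ss7CT19TC, the partner of aly-miR395i, had 35 reads in ‘Ant’, while ‘Mix’ listed it at 0. Its 35 reads were 11.3-fold the floor of 3 reads after normalization, a log2 ratio of 3.50 (Fisher's exact p = 1.59e-11). With the counting error of both libraries, the exact interval of its log2 ratio starts lower, at 3.12. The partners listed with both 3p forms on the same hairpins were thus also called higher, while cca-MIR395c-p5_1ss8CT, which lies opposite the letters of bra-miR395a-3p on another hairpin, was not.

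The sequence shared by bna-MIR395d-p5 and bna-MIR395f-p5 had 17 reads in ‘Ant’, against 3.5 reads in ‘Mix’, which gave a log2 ratio of 2.23 (interval 0.43 to 4.07, Fisher's exact p = 0.00381). bna-MIR395e-p5 had 2 reads in ‘Ant’ and 1 in ‘Mix’, too few to compare. mdm-miR395k, an apple form with no genome position in the table, was listed at 0 in ‘Ant’ and had 1 read in ‘Mix’. The first of these 3 was called higher, and the others were not called.

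The 1 sequence called lower in ‘Ant’ was also the most read miR395 sequence of ‘Mix’. cca-MIR395c-p5_1ss8CT had 69 reads in ‘Ant’, against 170 reads in ‘Mix’. With a log2 ratio of -1.35 it was the only called sequence below 0 (interval -1.77 to -0.93, Fisher's exact p = 2.10e-10), and the interval reaches within the threshold of the call. It ranked 239th of all 1152 sequences in ‘Ant’ and 172nd in ‘Mix’. The next miR395 sequence of ‘Mix’, bra-miR395a-3p, ranked 215th in ‘Ant’ and 555th in ‘Mix’. Per the notes of the table, the p5 in the name of cca-MIR395c-p5_1ss8CT marks a newly found 5p sequence that miRBase does not report for the matched hairpin.

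**Figure D2:**
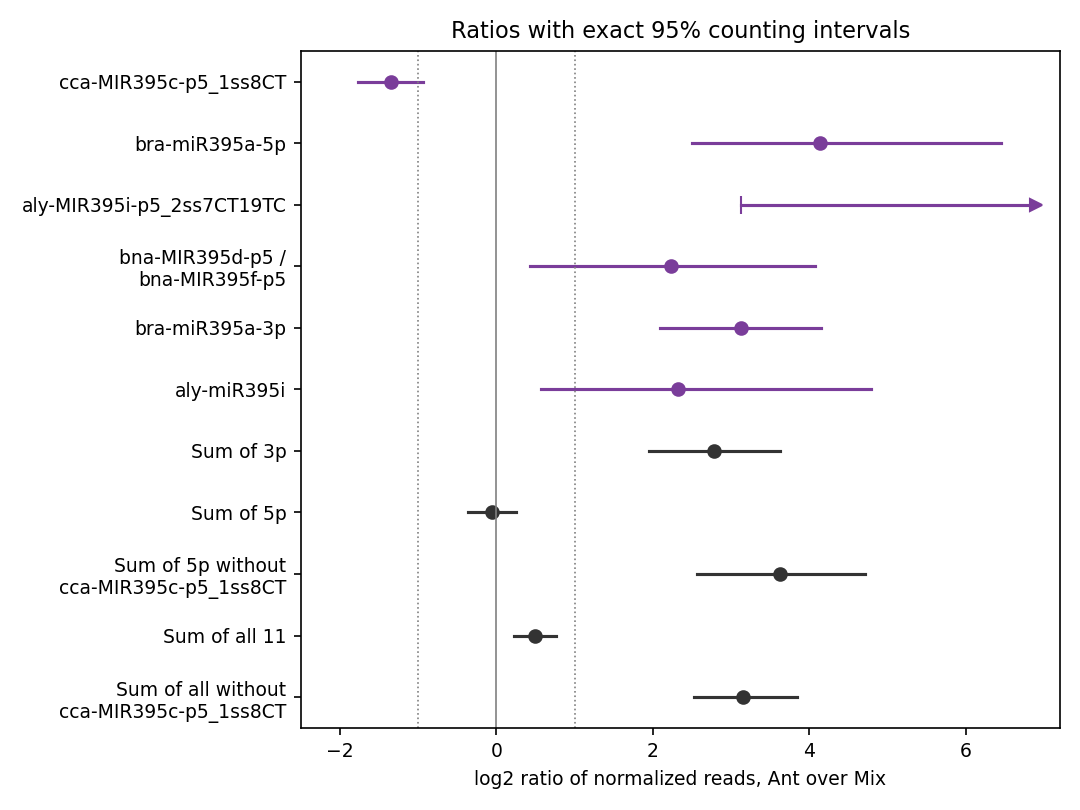
Points give the log2 ratio of normalized reads of ‘Ant’ over ‘Mix’ and lines its exact 95% counting interval, for the 6 miR395 sequences above 3 reads (purple) and for sums of sequences (black). The arrow marks aly-MIR395i-p5_2ss7CT19TC, listed at 0 in ‘Mix’, and dotted lines mark log2 ratios of -1 and 1. Among single sequences cca-MIR395c-p5_1ss8CT alone lies below 0, at -1.35, and the sum of all 11, at 0.49, moves to 3.15 without it.

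The family total depended on this sequence. Over all 11 sequences the normalized reads came to 275.83 in ‘Ant’, against 196.11 in ‘Mix’, which gave a log2 ratio of 0.49 (interval 0.22 to 0.76, Fisher's exact p = 1.19e-05), below the log2 threshold of 1. Without cca-MIR395c-p5_1ss8CT they came to 207.92 in ‘Ant’, against 23.39 in ‘Mix’, which gave a log2 ratio of 3.15 (interval 2.53 to 3.84, Fisher's exact p = 1.07e-40). Without bra-miR395a-3p, the most read sequence of ‘Ant’, the log2 ratio of the total was 0.040 (the larger p of the chi-square and Fisher's exact tests was 0.383). The total thus joined 1 sequence called lower with 5 called higher.

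The same held for the arms. The 5p side summed to 177.33 reads in ‘Ant’, against 178.5 reads in ‘Mix’, which gave a log2 ratio of -0.06 (interval -0.37 to 0.25, Fisher's exact p = 0.832). Without cca-MIR395c-p5_1ss8CT it summed to 108.33 reads in ‘Ant’, against 8.5 reads in ‘Mix’, which gave a log2 ratio of 3.62 (interval 2.56 to 4.71). That interval overlaps the one of the 3p side.

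Reads of the 5p side made up 63.2% of the miR395 reads in ‘Ant’ (57.4% to 68.6% by Wilson's interval) and 92.3% in ‘Mix’ (87.6% to 95.3%), a difference of -29.1 points (Fisher's exact p = 5.11e-14). Without cca-MIR395c-p5_1ss8CT the 5p share was 51.2% in ‘Ant’ (44.5% to 57.8%) and 37.5% in ‘Mix’ (21.2% to 57.3%), a difference of 13.7 points that did not pass the test (Fisher's exact p = 0.281). Within the bra-miR395a pair, 38.8% of the reads in ‘Ant’ (31.2% to 47.1%) and 23.1% in ‘Mix’ (8.18% to 50.3%) were on the 5p side (Fisher's exact p = 0.373). The shift between arms was therefore detected with cca-MIR395c-p5_1ss8CT included, and not without it, where ‘Mix’ had 23 reads left. Rounded for each arm, these entered the share and the test as 9 reads of the 5p side and 15 of the 3p side. Without bra-miR395a-3p the difference shrank to -6.51 points (Fisher's exact p = 0.00911).

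**Figure D3:**
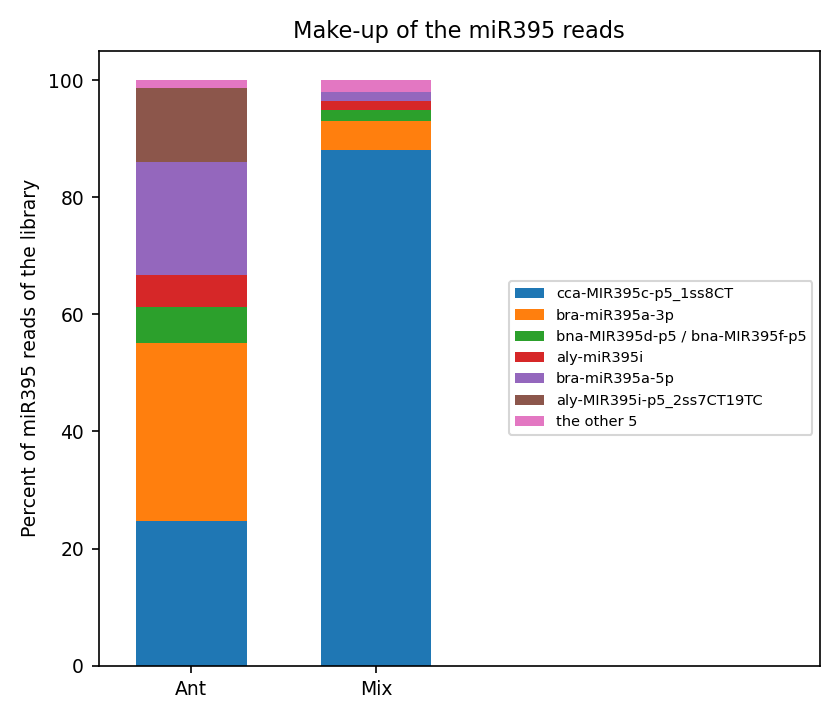
Stacked bars give the percent of miR395 reads held by each sequence in ‘Ant’ (left) and ‘Mix’ (right), with the 5 sequences of up to 2 reads joined. cca-MIR395c-p5_1ss8CT took 24.6% of the miR395 reads in ‘Ant’ and 88.1% in ‘Mix’, while bra-miR395a-3p took 30.5% in ‘Ant’ and 4.92% in ‘Mix’.

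The make-up of the family differed accordingly. cca-MIR395c-p5_1ss8CT took 24.6% of the miR395 reads in ‘Ant’ (Wilson interval from 19.96% to 30.01%) against 88.1% in ‘Mix’ (82.8% to 91.9%). With reads rounded for the intervals, bra-miR395a-3p took 30.4% in ‘Ant’ (25.3% to 36.0%) and 5.18% in ‘Mix’ (2.84% to 9.27%). Before rounding its shares were 30.5% in ‘Ant’ and 4.92% in ‘Mix’. For both sequences the intervals of the libraries did not overlap. In ‘Ant’ the reads were spread over 6 sequences, and in ‘Mix’ 1 sequence held most of them.

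By position, the 19 records apart from that of mdm-miR395k were placed on 10 hairpins on 3 chromosomes. The notes of the table do not name the genome build. All 4 MIR395 genes of the RefSeq annotation of CAAS_Brap_v3.01 had the same chromosome, start and end as a hairpin of the table, as did 78 of its 88 miRNA genes. They are MIR395A (A08 18694014 to 18694106), MIR395B (A07 24614770 to 24614863), MIR395C (A07 24620661 to 24620770) and MIR395D (A02 11120030 to 11120137), all on the minus strand. The other 6 hairpins are not annotated as miRNA genes there.

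The hairpins lay in 4 groups of close neighbours. On A07, 4 hairpins stood within 7028 bases, MIR395B and MIR395C on the minus strand and the hairpins of bna-MIR395e-p5 (24616713 to 24616808) and bna-MIR395f-p5 (24621690 to 24621797) on the plus strand. On A08, MIR395A and the hairpin of bna-MIR395d-p5 (18695206 to 18695322) stood within 1309 bases, again on opposite strands. On A02, MIR395D and a hairpin at 11109497 to 11109603 shared the minus strand within 10641 bases. The last group, on A07 at 12480056 to 12480165 and 12483382 to 12483489, held aly-miR395i with its partner and cca-MIR395c-p5_1ss8CT, both on the minus strand.

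**Figure D4:**
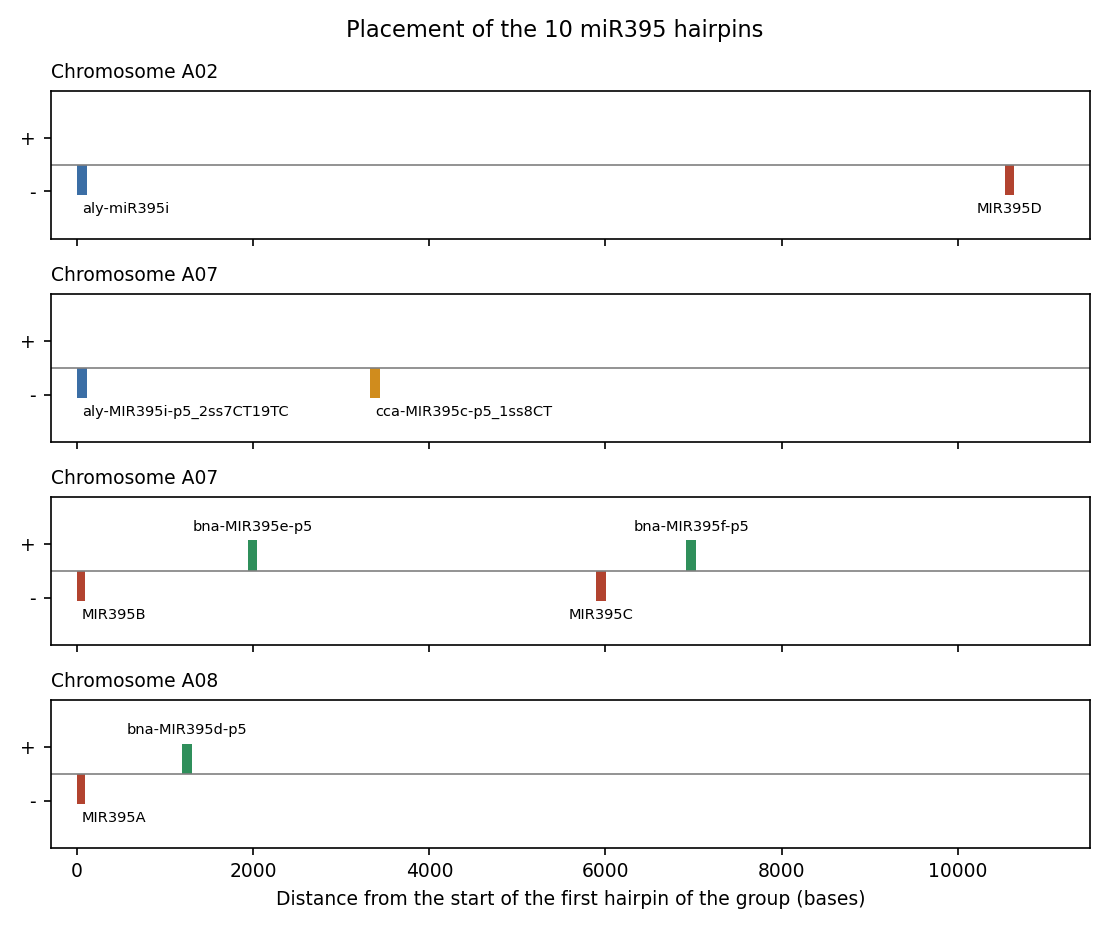
Bars mark the 10 miR395 hairpins by distance in bases from the start of the first hairpin of each group, above the line for the plus strand and below it for the minus strand, labelled by RefSeq gene or by the first sequence listed there. Colours mark the species prefix of that sequence, red for bra, green for bna, blue for aly and orange for cca. The hairpins of bna sequences lie on the plus strand, and the other 7 on the minus strand.

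The spans of 5 hairpins overlapped a RefSeq gene that is no miRNA gene, whose exons the annotation table does not give. Overlap was taken by position alone, and the strands of hairpin and gene were not compared. MIR395A and the hairpin of bna-MIR395d-p5 overlapped the protein-coding LOC103835625, both hairpins of A02 the protein-coding LOC103852615, and that of cca-MIR395c-p5_1ss8CT the lncRNA LOC103829211. The other 5 overlapped no annotated gene. Hairpins were 93 to 117 bases long, with a GC content of 34.5% to 45.4% and a folding energy of -53.9 to -41.4 kcal/mol in the authors' table.

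Shown here are MIR395A, as an example of the 4 hairpins that share the bra-miR395a pair and have no listed sequence of their own, and the pair of neighbours on A07, which do. They are given 5′ to 3′ on their own strand as in the table, with the listed miRNAs in capitals.
MIR395A: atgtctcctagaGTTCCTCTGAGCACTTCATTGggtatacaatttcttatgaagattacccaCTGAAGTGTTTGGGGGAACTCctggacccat
A07 12480056 to 12480165: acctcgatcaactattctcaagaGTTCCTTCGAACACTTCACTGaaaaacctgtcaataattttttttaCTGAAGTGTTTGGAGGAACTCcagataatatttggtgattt
A07 12483382 to 12483489: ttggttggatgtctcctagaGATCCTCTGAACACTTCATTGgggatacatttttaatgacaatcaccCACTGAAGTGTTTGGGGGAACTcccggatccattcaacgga

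The second of these hairpins could be followed through sequences of its own. aly-MIR395i-p5_2ss7CT19TC and aly-miR395i were each found whole in this hairpin and in no other of the 10, and together had 50.5 reads in ‘Ant’ and 3 reads in ‘Mix’. In ‘Ant’ the 5p sequence had 2.26 reads for each read of the 3p sequence, while the 3 reads of ‘Mix’ were on the 3p side. The table also lists aly-miR395i at the A02 hairpin at 11109497, but the letters there differ at 1 base (A14G, aly-miR395i first) and are those of bra-miR395a-3p. Its count of 15.5 reads in ‘Ant’ holds a fraction, and whether its counts include reads from elsewhere was not examined.

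On the third hairpin, 3326 bases from the second by their starts, only the 5p sequence could be followed, and it went the other way. cca-MIR395c-p5_1ss8CT was found whole in this hairpin alone, with its 69 reads in ‘Ant’ against 170 in ‘Mix’. The 3p side of the hairpin holds the whole of bra-miR395a-3p, although the table lists there gma-miR395d_L+3R-2, whose first base does not match (A1C, gma-miR395d_L+3R-2 first). In ‘Mix’ the 170 reads of its 5p side were 17.9 times the 9.5 reads listed for bra-miR395a-3p. In ‘Ant’ they were 0.808 times its 85.42 reads. Even if each of those 9.5 reads came from this hairpin, its 5p side would hold more reads than its 3p side in ‘Mix’. The reads are estimated counts, and whether they divide reads among hairpins that share a sequence was not examined.

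The reads of bra-miR395a-3p cannot be placed on 1 hairpin. The table lists this sequence at 4 hairpins, the MIR395 genes of RefSeq, and its letters were found whole in 6 of the 10. bra-miR395a-5p was found whole in the 4 MIR395 genes, and the bna-MIR395d-p5 sequence in 2 hairpins. Of the 10 hairpins, 3 had listed sequences found in them alone, the pair on A07 described above and that of bna-MIR395e-p5, whose sequences had 3 reads in ‘Ant’ against 2 in ‘Mix’. Matches elsewhere in the genome were not searched.

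In the folds given by the authors, the forms with most reads, apart from the bna-MIR395d-p5 sequence, had the 3p overhang of a miRNA duplex. The overhang at the other end of the duplex was not obtained for any pair. The bna-MIR395d-p5 sequence, with 17 reads in ‘Ant’, was not measured in a pair. For the 4 MIR395 genes, bra-miR395a-5p and bra-miR395a-3p shared 16 base pairs, and the 3p strand reached 2 bases past the start of its partner. On A07, aly-MIR395i-p5_2ss7CT19TC and aly-miR395i shared 18 pairs, and cca-MIR395c-p5_1ss8CT and the bra-miR395a-3p letters opposite it shared 15, with the same overhang of 2 bases. bna-MIR395e-p3 lay toward the loop and shared 8 pairs with bna-MIR395e-p5. In the 3 hairpins of bna sequences the 3p side instead holds ctgaagtgtttggggggactc, the form that miRBase marks as mature, which differs from bra-miR395a-3p at A17G (bra-miR395a-3p first) and was not among the sequences of the table.

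Other miRNAs of nutrient supply were set beside miR395, in a list taken from the numbers in their names. For phosphate (miR399, miR827 and miR2111, with none of miR778 in the table) 12 of 25 sequences were called higher and 2 lower, and 9 of the higher calls were miR399. The phosphate list summed to 1588.16 reads in ‘Ant’ against 1711.58 in ‘Mix’ (log2 ratio -0.15). For copper (miR397, miR398, miR408 and miR857) 10 of 24 were called higher and 6 lower, and the list summed to 273470 reads in ‘Ant’ against 209109 in ‘Mix’ (log2 ratio 0.34). ath-miR399b, the most read miR399, had 446 reads in ‘Ant’ against 67 in ‘Mix’, and bna-miR397a had 88328 and 5173. bra-miR2111b-3p went the other way, with 158 reads in ‘Ant’ against 864 in ‘Mix’, as did cas-MIR408-p5 with 34695 and 132240. cas-MIR827a-p5 had 134 reads in ‘Ant’ against 248 in ‘Mix’, which does not reach the log2 threshold of 1. The sequence of ath-miR398b-3p had 35290.2 reads in ‘Ant’ against 5790.17 in ‘Mix’, and aly-miR857-5p had 80.5 and 19. Shares of 28.0% higher and 19.3% lower over the table stand beside these counts.

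Over the 2 libraries, the families whose total had the log2 ratio nearest to the 0.49 of miR395 were miR161 (0.56, 4809 reads in ‘Ant’ and 3160 in ‘Mix’), miR398 (0.39, 46711.5 and 34614.5) and miR9563 (0.61, 2288.5 and 1452). Likeness in 1 ratio is a description only, since the ratio of miR395 itself rested on opposite sequences.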

How the data were processed

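Small RNA of ‘Ant’ and ‘Mix’ was analysed from 1 library each. The authors kept reads of 18 to 25 nt and mapped them to miRBase 21.0 and the genome; the aligner is not given in the sources used here. Each entry is the best-scoring read of a cluster, per the notes of the table. Its deposited number of reads is an estimated count that can hold a fraction, and was rounded for tests and intervals. The normalized signal that the authors deposited is the reads multiplied by 1 factor per library, 0.984 for ‘Ant’ and 1.016 for ‘Mix’. The GC percent and the folding energy, a score per hairpin, were deposited by the authors.

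Tests ran over all 1152 distinct sequences, and shares of miR395 reads have Wilson intervals. The members, lists and tests were chosen with earlier results of these data known. All 11 sequences are named, with the 3 families nearest in log2 ratio and the most read sequence of each nutrient family. Hairpins less than 20000 bases apart form a group. The alternatives were other scalings, entries, thresholds, pseudocounts and tests, read minimums and leaving out single sequences. Python 3.11.15 with scipy 1.17.1 and R 4.3.3 with edgeR 4.0.16 were used.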

Additional observations from a re-analysis of the deposited data

How the results depend on the processing

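No paired analysis was possible because each group has 1 library. Of 74 values recomputed, 63 kept their direction and side of the threshold or lay within 1.5 times. Values counted as kept could still move. Without bra-miR395a-3p the family log2 ratio went from 0.49 to 0.040 and the 3p log2 ratio from 2.78 to 1.76. The difference in the 5p share went from -29.1 to -6.51 points. The 5p log2 ratio, near 0, became 0.040 when scaled by listed reads, 0.049 with 1 entry per name and with the values of names summed, and 3.62 without cca-MIR395c-p5_1ss8CT. Leaving out that sequence also gave a family log2 ratio of 3.15, a difference of 13.7 points in the 5p share and 0 lower calls. A log2 threshold of 2 likewise left 0 lower calls. A pseudocount of 10 left 3 higher calls. With a biological coefficient of variation assumed at 0.4, edgeR's exact test left 3 higher and 0 lower calls. The calls left were bra-miR395a-5p, bra-miR395a-3p and aly-MIR395i-p5_2ss7CT19TC, and p was 0.126 for cca-MIR395c-p5_1ss8CT, 0.0961 for bna-MIR395d-p5 and 0.0675 for aly-miR395i. At 0.2 all 6 calls stood. TMM factors shifted each log2 ratio by -0.21 and changed no miR395 call. They entered the log2 ratio alone, and the p-values stayed those of the main tests. No called miR395 ratio lay within that shift of the threshold, so this setting could not remove a call. Leaving out the 3p sequences outside a duplex, chosen after seeing the data, changed no call. Depth limits the 5 sequences of up to 2 reads and the arm shares of ‘Mix’.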
